A study of Mus musculus with 12 samples.

Results

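The T cells described here are those of the brain parenchyma, the tissue of the brain itself, in 5xFADTg mice and in NonTg mice. The labels give 2 receptor libraries for each genotype, made from sort-purified CD45+ immune cells of C57BL/6 mice, so all 4 libraries share strain, sort and tissue. The 5xFAD line carries transgenes under the neuronal Thy1 promoter and deposits amyloid in the brain, and is used as a model of Alzheimer's disease, while NonTg mice lack the transgenes. Age, sex, the number of animals and any pooling of animals are not stated in the sources used here, so p-values measure the spread between libraries, part of which may be technical. A cell entered when its barcode held exactly 1 productive beta chain (TRB), with or without an alpha chain (TRA). These were 5567 cells, against 6395 such cells in all 6 receptor libraries of the series, which include 1 meninges library per genotype. The libraries are called NonTg 1 and 2 and 5xFADTg 1 and 2, and held 1283, 918, 1435 and 1931 of the cells. A clone is the set of cells of a library with the same TRB CDR3 nucleotide sequence, and there were 2969 clones.

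The beta chain is built by joining a V, a D and a J segment of the TRB locus. The CDR3 is the stretch across these joints, where bases are trimmed and added without a template, so a CDR3 nucleotide sequence marks the descendants of a T cell. The locus carries its D, J and C genes in a pair of clusters in the order TRBD1, TRBJ1 segments, TRBC1 and then TRBD2, TRBJ2 segments, TRBC2. TRBD1 can join either J cluster, whereas TRBD2 can join only the TRBJ2 segments that follow it. T cells that divide after meeting antigen form expanded clones, and memory T cells that reside in the brain are often clonally expanded. A repertoire counted by clone gives each rearrangement the same weight, and counted by cell it gives weight to the expanded clones.

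No contig of a gamma, delta or immunoglobulin chain was listed in any library. This count covered all listed contigs, not only those of the cells that entered. A cell without a listed contig is not seen in these libraries, so the absence does not show which other cells were present. A productive alpha chain was found in 82.9% of cells in NonTg 1 (95% exact Clopper-Pearson interval 80.7 to 84.9%), 83.4% in NonTg 2 (80.9 to 85.8%), 84.0% in 5xFADTg 1 (82.0 to 85.9%) and 75.2% in 5xFADTg 2 (73.3 to 77.2%). The libraries held 22291984 to 26710709 reads and 101996 to 128700 UMIs over their listed contigs, with a median of 7 to 8 TRB UMIs per cell. The gene expression libraries of the same samples were not analysed here, so CD4+ and CD8+ T cells were not told apart.

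The sequences of the 3 largest clones of each library are shown because the largest clones weigh most in every value counted by cell. Lower case marks bases that match the germline V segment at the start or the germline J segment at the end, and capitals mark the middle bases, which come from a D segment or were added without a template.
NonTg 1, TRBV10 with TRBJ2-7: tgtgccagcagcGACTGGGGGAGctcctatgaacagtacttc
NonTg 1, TRBV12-2+TRBV13-2 with TRBJ1-2: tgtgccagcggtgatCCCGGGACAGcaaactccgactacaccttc
NonTg 1, TRBV16 with TRBJ2-1: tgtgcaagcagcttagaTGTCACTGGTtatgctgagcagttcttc
NonTg 2, TRBV12-2+TRBV13-2 with TRBJ2-7: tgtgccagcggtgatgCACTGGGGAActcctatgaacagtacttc
NonTg 2, TRBV19 with TRBJ2-1: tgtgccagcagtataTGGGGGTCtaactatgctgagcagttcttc
NonTg 2, TRBV12-1 with TRBJ2-3: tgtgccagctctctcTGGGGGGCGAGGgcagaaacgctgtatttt
5xFADTg 1, TRBV17 with TRBJ1-1: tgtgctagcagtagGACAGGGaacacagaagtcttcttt
5xFADTg 1, TRBV1 with TRBJ1-4: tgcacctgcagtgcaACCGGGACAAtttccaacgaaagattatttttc
5xFADTg 1, TRBV12-2+TRBV13-2 with TRBJ2-7: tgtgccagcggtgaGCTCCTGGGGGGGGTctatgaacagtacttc
5xFADTg 2, TRBV1 with TRBJ2-5: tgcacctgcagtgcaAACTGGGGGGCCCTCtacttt
5xFADTg 2, TRBV12-1 with TRBJ1-1: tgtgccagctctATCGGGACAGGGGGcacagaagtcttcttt
5xFADTg 2, TRBV5 with TRBJ1-1: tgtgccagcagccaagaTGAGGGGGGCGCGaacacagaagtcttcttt

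The 3 clones of NonTg 1 had 45, 39 and 35 cells, those of NonTg 2 had 99, 72 and 31, those of 5xFADTg 1 had 86, 76 and 41 and those of 5xFADTg 2 had 115, 107 and 82. The largest clone thus held 3.51% of the cells in NonTg 1 (exact interval 2.57 to 4.67%), 10.8% in NonTg 2 (8.85 to 13%), 5.99% in 5xFADTg 1 (4.82 to 7.35%) and 5.96% in 5xFADTg 2 (4.94 to 7.11%). The highest and the lowest of these shares were both NonTg. Of the 6 sequences from 5xFADTg libraries 4 carried a TRBJ1 segment, 3 of them TRBJ1-1, and of the 6 from NonTg libraries 1 did. The germline TRBJ1-1 bases are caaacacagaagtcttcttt, and the 3 TRBJ1-1 sequences above end on parts of it. Intervals cover counting error only, because PCR products and the choice of cells add to it.

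The V label TRBV12-2+TRBV13-2 is a joint label of the deposited files. Of its 311 clones, 267 opened with the first 12 bases of germline TRBV13-2 and 0 with those of TRBV12-2. None of the 123 clones labelled TRBV10 opened with the 12 germline bases of TRBV10, which GENCODE M21 lists as a pseudogene, whereas 102 opened with those of TRBV4. No clone carried the label TRBV4. The labels are kept here as deposited.

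Expanded clones were found in all 4 libraries. Clones of a single cell held 47.1% of the cells of NonTg 1, 50.2% of NonTg 2, 45.8% of 5xFADTg 1 and 41.2% of 5xFADTg 2, and clones of 2 or more held the rest. Libraries with more cells find more clones with repeated cells, so the libraries were also set to 918 cells each, the number of the smallest, by the exact expectation under random draws. Clones of 2 or more cells then held 50.9%, 49.8%, 50.9% and 52.8% of the cells. The means were 50.3% ± 0.760 in NonTg and 51.8% ± 1.34 in 5xFADTg (SD, n = 2 each). They differed by 1.53 points. The exact permutation p, two-sided, was 0.33, the smallest that 2 against 2 libraries can give, and 0.833 when adjusted over the 5 size measures. The groups did not overlap, but NonTg 1 and 5xFADTg 1 were nearly equal.

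Clones of 10 or more cells held 26.1% and 28.8% of the cells in NonTg and 31.7% and 27.1% in 5xFADTg at 918 cells, with overlapping libraries (exact permutation p = 0.667, n = 2 each). The number of different clones among 918 cells was 529.7 and 539.0 in NonTg and 522.4 and 514.5 in 5xFADTg. The difference of -15.9 clones had the smallest possible p (exact permutation p = 0.33, adjusted p = 0.833, n = 2 each). The probability that a pair of cells belonged to the same clone was 0.672% and 2.01% in NonTg and 1.13% and 1.20% in 5xFADTg, so the NonTg libraries lay on both sides of the 5xFADTg libraries (exact permutation p = 1, n = 2 each). The NonTg libraries also lay on both sides for the 10 largest clones, with 22.6% and 30.2% of cells in NonTg and 29.6% and 27.9% in 5xFADTg (exact permutation p = 1, n = 2 each). Groups did not overlap for 2 of the 5 size measures (40%). With only cells that have an alpha chain the libraries were set to 766 cells each, the number in NonTg 2. These 2 differences were then 0.00546 points for cells in clones of 2 or more (exact permutation p = 0.67, n = 2 each) and -0.186 clones (exact permutation p = 1, n = 2 each). With or without an alpha chain, and at 918 cells, the first was 0.583 points without 5xFADTg 2 and 2.48 without 5xFADTg 1.

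**Figure D1:**
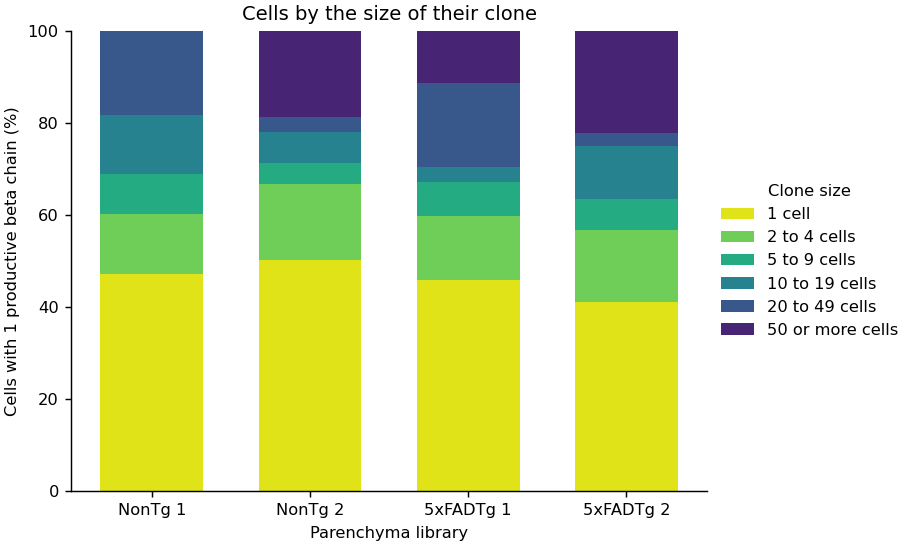
Share of the cells of each parenchyma library (y axis, percent) by the size of the clone they belong to, as stacked bars for the 2 NonTg and 2 5xFADTg libraries, all cells counted. Clones of 1 cell held 41.2 to 50.2% of the cells, and clones of 50 or more held 0% in NonTg 1, 18.6% in NonTg 2, 11.3% in 5xFADTg 1 and 22.1% in 5xFADTg 2.

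How the expanded cells were spread over size classes differed from library to library. NonTg 1 had 19 clones of 10 or more cells, of which 7 had 20 to 49 and 0 had 50 or more. NonTg 2 had 8, of which 2 with 99 and 72 cells held 18.6% of the library. 5xFADTg 1 had 13 clones of 10 or more, 8 of them with 20 to 49 cells and 2 with 50 or more. 5xFADTg 2 had 23, of which 5 had 50 or more. These 63 large clones used 12, 5, 8 and 12 different TRBV segments in NonTg 1, NonTg 2, 5xFADTg 1 and 5xFADTg 2, and 16, 8, 12 and 21 different TRBV-TRBJ pairs, so nearly each large clone of a library had its own pair.

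Most clones had a single alpha chain partner. Among clones of any size with an alpha chain in at least 2 cells, 22.5% in NonTg 1, 16.9% in NonTg 2, 17.0% in 5xFADTg 1 and 15.6% in 5xFADTg 2 had more than 1 alpha sequence when the alpha chain with most UMIs was taken per cell. A T cell can carry 2 productive alpha chains. The TRBV1 with TRBJ1-5 clone of 5xFADTg 2 is such a case: of its 51 cells, 49 had an alpha chain, 28 had 2, and the pair of chains led in 24 cells each. Its beta sequence had only 6 bases of germline TRBV1 left.
5xFADTg 2, TRBV1 with TRBJ1-5: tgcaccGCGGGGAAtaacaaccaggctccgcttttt

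The large clones differed in how often an alpha chain was found. The median share of cells with a productive alpha chain per large clone was 90.0% in NonTg 1, 91.3% in NonTg 2, 93.4% in 5xFADTg 1 and 84.5% in 5xFADTg 2. Of the 63 large clones, 3 had an alpha chain in under 50% of their cells, and all 3 used TRBV12-1, which 7 of the 63 used. They were singled out after their values were seen. The 107-cell TRBV12-1 with TRBJ1-1 clone of 5xFADTg 2, shown above, had a productive alpha chain in 2 cells, and these 2 chains differed. A nonproductive alpha contig was listed for 6 of its cells. Its median TRB UMI count was 6, against 8 in the other 1824 cells of the library, of which 79.6% had an alpha chain. An 11-cell TRBV12-1 with TRBJ2-5 clone of NonTg 1 had an alpha chain in 0 of 11 cells, and a 12-cell TRBV12-1 with TRBJ2-7 clone of NonTg 2 in 4 of 12. The other 4 large TRBV12-1 clones had one in 72.7%, 94.7%, 100% and 100% of their cells. Both of the small clones are shown because the first has a single middle base.
NonTg 1, TRBV12-1 with TRBJ2-5: tgtgccagctctcCagacacccagtacttt
NonTg 2, TRBV12-1 with TRBJ2-7: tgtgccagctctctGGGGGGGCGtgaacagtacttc

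TRBV12-1 clones of 1 cell had an alpha chain in 84.9% of 119 cases, against 79.1% of 2398 single-cell clones with other TRBV labels.

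**Figure D2:**
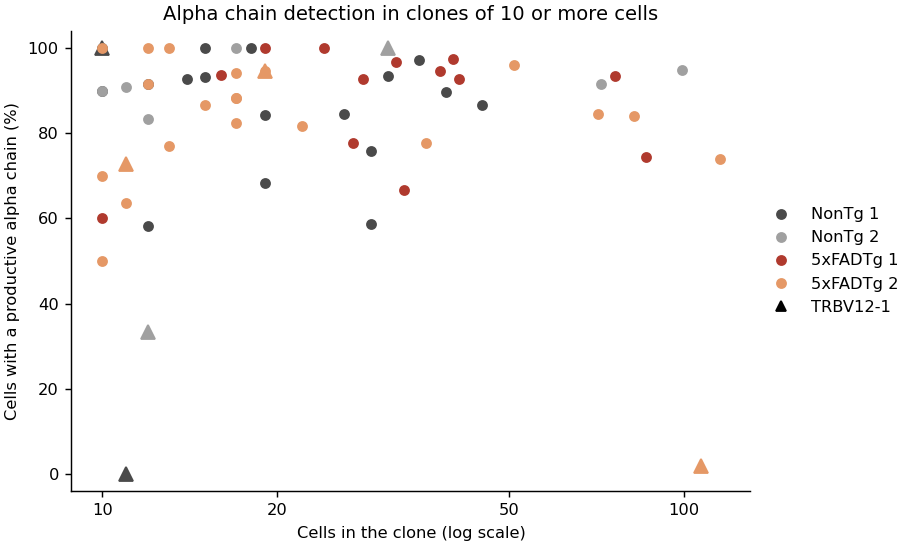
Share of cells with a productive alpha chain (y axis, percent) against the number of cells (x axis, log scale) for each of the 63 clones of 10 or more cells, coloured by library, with triangles for TRBV12-1 and circles for other TRBV labels. Of the 7 triangles, 3 lie at 0%, 1.87% and 33.3% and 4 at 72.7% to 100%, and all circles lie at 50% or more.

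The J cluster use of the genotypes overlapped by clone and did not overlap by cell. Counted by clone, TRBJ1 segments made up 33.8% and 35.3% of NonTg and 31.9% and 35.2% of 5xFADTg clones, a difference of -0.945 points with overlapping libraries (exact permutation p = 0.667, n = 2 each, adjusted p = 1 over 8 measures). Counted by cell, they made up 32.9% and 25.5% of NonTg and 42.4% and 41.0% of 5xFADTg cells. The difference by cell was 12.5 points (29.2% ± 5.23 against 41.7% ± 0.958, SD, n = 2 each, exact permutation p = 0.33, adjusted p = 0.33 over 8 measures). Without the 3 largest clones of each library, an alternative added after the data were seen, the difference by cell was 3.84 points.

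The libraries stood furthest apart in the large clones. In clones of 1 cell the TRBJ1 share was 34.1% in NonTg 1, 36.7% in NonTg 2, 31.5% in 5xFADTg 1 and 35.0% in 5xFADTg 2. In clones of 10 or more cells TRBJ1 segments held 32.6% and 3.79% of the NonTg cells and 61.9% and 50.9% of the 5xFADTg cells. By clone, these were 7 of 19 and 1 of 8 large clones in NonTg against 6 of 13 and 7 of 23 in 5xFADTg, with exact intervals that overlap widely (16.3 to 61.6%, 0.316 to 52.7%, 19.2 to 74.9% and 13.2 to 52.9%). The cell shares rest on these few clones per library.

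**Figure D3:**
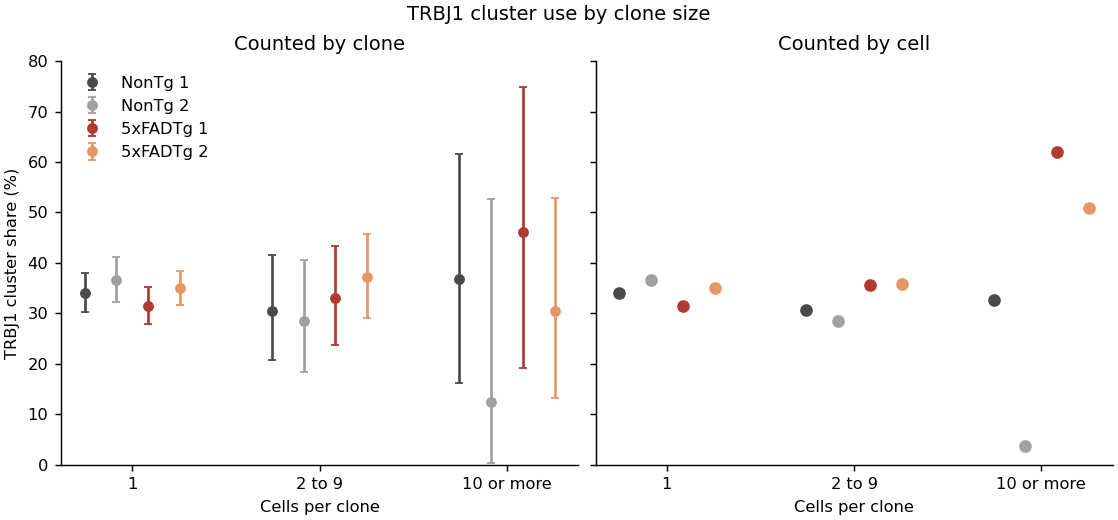
TRBJ1 cluster share (y axis, percent) in clones of 1, 2 to 9 and 10 or more cells (x axis), by clone with 95% exact binomial intervals on the left and by cell on the right, coloured by library. The 4 libraries lie between 31.5% and 36.7% for clones of 1 cell, and by cell between 3.79% and 61.9% for clones of 10 or more.

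TRBJ1-1 is the first J segment of its cluster. It was carried by 135 and 67 cells in NonTg and by 249 and 423 in 5xFADTg, which is 10.5%, 7.30%, 17.4% and 21.9% of the libraries. The groups did not overlap. The log2 fold change was 1.14 (SE 0.40), and with edgeR's quasi-likelihood test and Benjamini-Hochberg adjustment over the 34 segments the adjusted p was 0.212. With TMM factors it was 0.0433 and with DESeq2 0.00174, and over the alternatives run it lay between 0.00174 and 0.894. By clone, TRBJ1-1 stood at 10.2%, 10.4%, 9.65% and 12.1% (log2 fold change 0.09, SE 0.26). Clones of 10 or more cells gave 158 of the 249 TRBJ1-1 cells in 5xFADTg 1 and 260 of the 423 in 5xFADTg 2, against 37 of 135 in NonTg 1 and 0 of 67 in NonTg 2. Without the 3 largest clones of each library its log2 fold change by cell was 0.39 (SE 0.30). TRBJ1-1 lies at chr6:41533864-41533911 (mm10, forward strand), between TRBD1 and TRBC1.

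Across segments, edgeR called 0 of 33 by clone (0%), with 0 under 0.05 before adjustment, and DESeq2 gave the same numbers. By cell edgeR called 0 of 34 (0%), with 3 under 0.05 before adjustment. DESeq2 called 2 of 34 by cell, TRBJ1-1 and TRBV1, with 4 under 0.05 before adjustment. Groups did not overlap for 24.2% of segments by clone (9.09% higher in 5xFADTg) and 32.4% by cell (14.7% higher in 5xFADTg). Of the 6 TRBJ1 segments tested, 3 had a log2 fold change above 0 by cell and 3 below, with a median of 0.10, and of the 6 TRBJ2 segments likewise 3 and 3, with a median of -0.15, beside a median of -0.01 over all 34 segments. None of either list was called in edgeR. By clone the medians were -0.04 for TRBJ1 and 0.07 for TRBJ2.

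TRBJ2-7, the last J segment of the locus, was the most used, with 18.3% and 18.7% of NonTg and 21% and 18.4% of 5xFADTg clones. TRBJ2-1 followed with 15%, 8.72%, 13.2% and 12.4%, so the NonTg libraries lay on both sides. By cell, TRBJ2-1 held 19.9% and 16.0% in NonTg and 11.2% and 10.3% in 5xFADTg (log2 fold change -0.74, SE 0.40, edgeR adjusted p = 0.472). TRBJ2-7 held 20.1% and 26.9% against 18.4% and 14.7% (-0.51, SE 0.30, edgeR adjusted p = 0.527). In NonTg 2, 99 of its 247 TRBJ2-7 cells and 72 of its 147 TRBJ2-1 cells were in its 2 largest clones. TRBJ1-4 held 3.27%, 5.56%, 10.7% and 4.76% of cells, of which the 76-cell clone of 5xFADTg 1 was a part. By clone TRBJ1-5 had the smallest p among J segments, with 2.55%, 3.53%, 2.22% and 2.19% (log2 fold change -0.44, SE 0.27, edgeR adjusted p = 0.994). The remaining J segments had a log2 fold change by clone between -0.28 for TRBJ2-5 and 0.19 for TRBJ2-2. By cell, the J segments without values by cell so far lay between -0.57 (SE 0.61) for TRBJ2-3 and 0.44 (SE 0.64) for TRBJ2-2. Among these, TRBJ2-2 and TRBJ2-4 were higher in both 5xFADTg libraries and TRBJ2-3 lower, without overlap (edgeR adjusted p = 0.901 for each). Over all segments by cell 32.4% did not overlap.

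No V segment was called by clone. The joint label TRBV12-2+TRBV13-2 was the most used, with 311 clones (9.79% and 10.6% in NonTg, 10.6% and 10.9% in 5xFADTg). TRBV13-3 had 235 clones, TRBV3 234, TRBV19 216 and TRBV13-1 190. Their log2 fold changes by clone were 0.08, -0.07, -0.10, -0.25 and 0.16, each smaller than its SE. The smallest p were those of TRBV29 (34 and 25 clones in NonTg, 67 and 52 in 5xFADTg, log2 fold change 0.56, SE 0.34), TRBV1 (28, 23, 46 and 50 clones, 0.44, SE 0.32) and TRBV17 (14, 12, 19 and 29, 0.40, SE 0.27) on the higher side, and TRBV20 (17, 26, 21 and 21, -0.51, SE 0.27) and TRBV13-2 (15, 14, 13 and 16, -0.47, SE 0.27) on the lower, and edgeR's adjusted p was 0.994 for all 5. Of the 3 TRBV13 segments 1 lay above 0 and 2 below, with a median of -0.07, and of the 2 TRBV12 segments 1 each, with a median of -0.02. The joint label, with 311 clones and a log2 fold change of 0.08, entered neither of these lists.

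By cell, TRBV1 was at 4.68% and 3.27% in NonTg and at 9.41% and 12.9% in 5xFADTg, without overlap. This was 60 and 30 cells against 135 and 249 (log2 fold change 1.48, SE 0.62, edgeR adjusted p = 0.212, DESeq2 adjusted p = 0.0160). Clones of 10 or more gave 76 of the 135 and 197 of the 249 TRBV1 cells in 5xFADTg, and 31 of 60 and 0 of 30 in NonTg. Without the 3 largest clones of each library the log2 fold change was 0.48 (SE 0.52). TRBV19 was lower, at 10.1% and 15.1% in NonTg and 4.25% and 7.72% in 5xFADTg (-1.07, SE 0.55, edgeR adjusted p = 0.472), and 72 of the 139 TRBV19 cells of NonTg 2 were a single clone. TRBV30, the segment at chr6:41281376-41281990, was rare, with 2, 1, 3 and 28 cells (edgeR adjusted p = 0.212), of which 22 in 5xFADTg 2 were 1 clone. It passed when 5xFADTg 1 was left out (edgeR adjusted p = 0.000542), with 5xFADTg 2 then the lone library of its genotype and assumed to vary like the others. TRBV17 had 36, 20, 106 and 41 cells. Its log2 fold change of 0.91 (SE 0.64) became -0.50 (SE 0.56) without the 3 largest clones, 1 of which was the 86-cell TRBV17 clone of 5xFADTg 1.

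**Figure D4:**
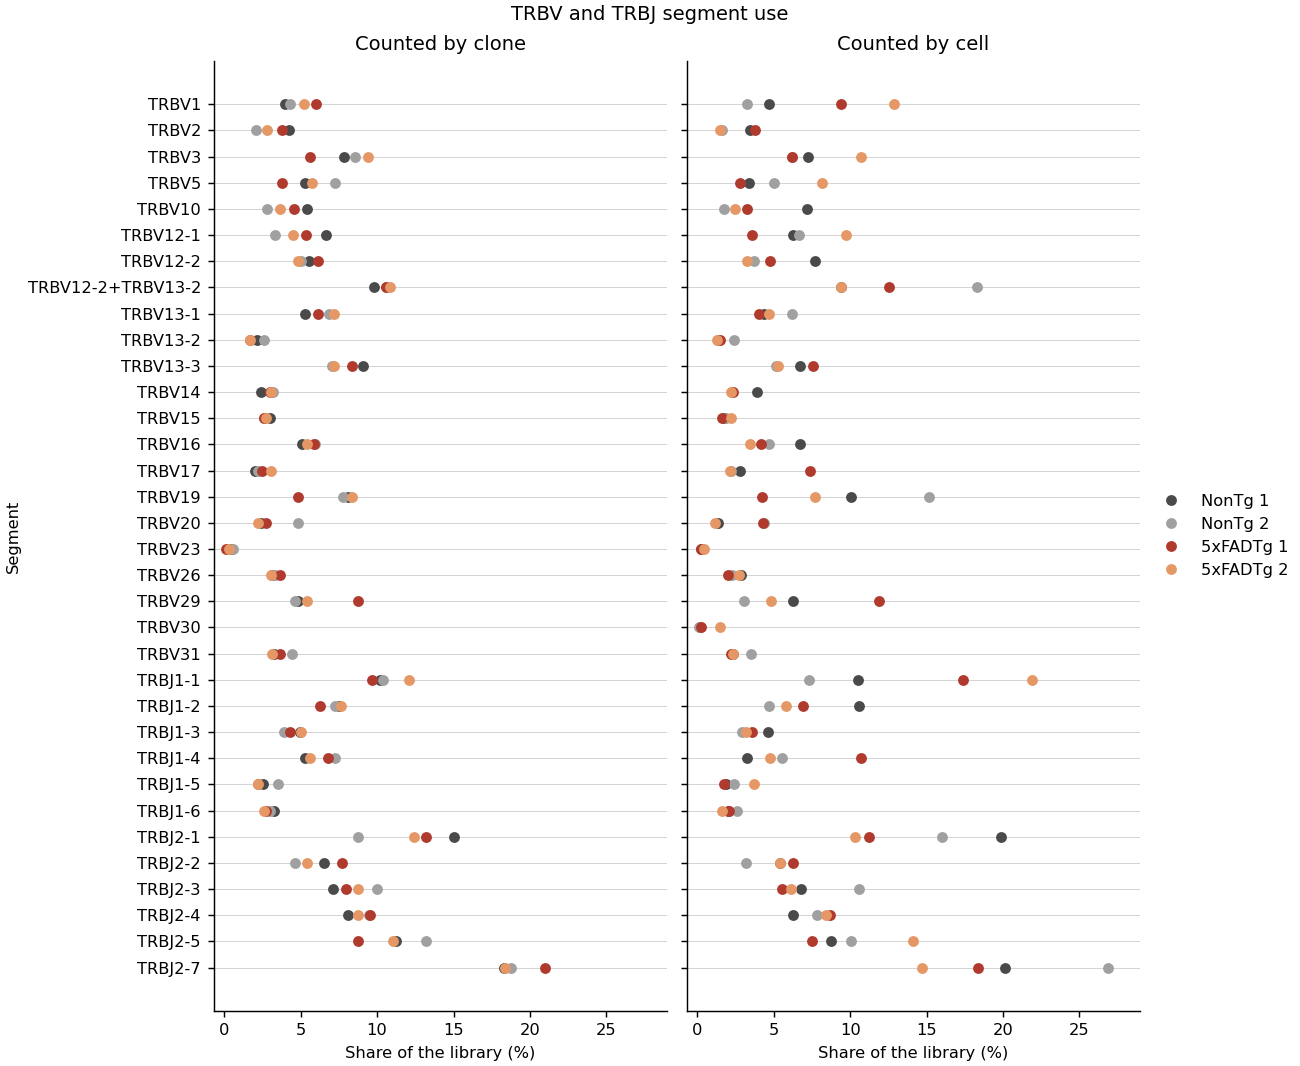
Share of each library (x axis, percent) carried by each TRBV and TRBJ segment with at least 10 counts (y axis), by clone on the left and by cell on the right, 1 point per library. By cell TRBJ1-1 (17.4% and 21.9%) and TRBV1 (9.41% and 12.9%) lie higher in both 5xFADTg libraries than in both NonTg libraries.

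The most frequent pair, TRBV12-2+TRBV13-2 with TRBJ2-7, formed 11, 13, 20 and 22 clones in NonTg 1, NonTg 2, 5xFADTg 1 and 5xFADTg 2, which is 0.871, 1.22, 1.18 and 1.15 times the product of the shares of its segments. TRBV3 with TRBJ2-7 followed with 51 clones in all (0.894, 1.28, 1.22 and 1.21 times), then TRBV12-2+TRBV13-2 with TRBJ2-1 with 42 and TRBV13-1 with TRBJ2-7 with 41. TRBV19 with TRBJ2-1 had 39 and stood at 1.28, 2.18, 1.44 and 1.31 times its expected number, above 1 in all 4 libraries. TRBV19 with TRBJ2-7 also had 39 clones and stood at 0.863 to 1.03 times. The libraries held 207, 199, 207 and 216 different TRBV-TRBJ pairs.

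Of 248 TRBV-TRBJ pairs seen, 121 had 10 or more clones and entered the fit by clone, and 154 entered by cell. edgeR called 0 of either (0%), with 3 by clone and 8 by cell under 0.05 before adjustment. DESeq2 also called 0 of either, with 0 and 6 under 0.05. Groups did not overlap for 35.5% of pairs by clone and 37.7% by cell. By clone the smallest p were those of TRBV12-2+TRBV13-2 with TRBJ2-3 (9 and 7 clones in NonTg, 5 and 4 in 5xFADTg), TRBV13-3 with TRBJ1-4 (5, 6, 3 and 2) and TRBV26 with TRBJ2-5 (6, 4, 3 and 0) on the lower side. On the higher side they were TRBV29 with TRBJ2-2 (2, 1, 5 and 7), TRBV14 with TRBJ2-7 (2, 2, 4 and 10) and TRBV29 with TRBJ1-2 (2, 3, 5 and 11). The edgeR adjusted p of all 6 was 0.911. By cell, TRBV30 with TRBJ2-4 had 0 and 0 cells in NonTg and 1 and 22 in 5xFADTg, TRBV14 with TRBJ1-2 had 0, 0, 9 and 1, and TRBV19 with TRBJ1-2 had 34, 3, 0 and 4. TRBV31 with TRBJ1-5 had 10, 1, 0 and 1 and TRBV26 with TRBJ2-5 had 13, 5, 3 and 0 (edgeR adjusted p = 0.606 for all 5). TRBV14 with TRBJ2-4 had 0, 1, 3 and 11 (edgeR adjusted p = 0.694).

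The clones with an alpha chain numbered 586, 438, 640 and 762 and formed 375, 312, 387 and 407 different TRBV-TRAV pairs, with near-identical TRAV copies counted as 1 segment. The most frequent pair in all was TRBV12-2+TRBV13-2 with TRAV11, with 5 and 8 clones in NonTg and 12 and 29 in 5xFADTg. This was 3.43, 4.87, 4.31 and 4.48 times the number expected from the use of its segments, above the expected number in all 4 libraries (log2 fold change 1.13, SE 0.94, edgeR adjusted p = 0.754). TRAV11 is the V segment of the invariant alpha chain of iNKT cells, which recognise lipids on CD1d and favour the beta segments TRBV13, TRBV29 and TRBV1. TRBV13-1 with TRAV11 had 4, 3, 3 and 8 clones, TRBV29 with TRAV11 had 3, 1, 4 and 8, and TRBV1 with TRAV11 had 1, 0, 5 and 6 (log2 fold change 2.77, SE 1.33, edgeR adjusted p = 0.617). TRBV3 with TRAV16 had 6 and 5 clones in NonTg and 3 and 4 in 5xFADTg, and TRBV3 with TRAV3-3 had 5, 3, 2 and 6.

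Of 705 TRBV-TRAV pairs seen by clone, 30 had 10 or more clones and entered the fit, and of 708 by cell 115 did. edgeR called 0 of each (0%), with 2 and 10 under 0.05 before adjustment. DESeq2 called 0 of each, with 2 and 8 under 0.05. Groups did not overlap for 40% of the pairs by clone and 36.5% by cell. The smallest p by clone was that of TRBV3 with TRAV14-3, with 4 and 6 clones in NonTg and 2 and 2 in 5xFADTg (log2 fold change -1.70, SE 0.72, edgeR adjusted p = 0.617). TRBV19 with TRAV12-2 had 0, 2, 6 and 5 clones (1.9, SE 0.997, edgeR adjusted p = 0.617). By cell, TRBV14 with TRAV4-4 had 7 and 4 cells in NonTg and 0 and 0 in 5xFADTg, and TRBV1 with TRAV7-4 had 0, 0, 2 and 12. TRBV20 with TRAV16 had 10 cells in NonTg 2 and 0 elsewhere, and TRBV30 with TRAV10 and TRBV3 with TRAV21 had 18 and 13 cells in 5xFADTg 2 and 0 elsewhere. All 5 had an edgeR adjusted p of 0.353. TRBV12-2 with TRAV3-4 had 22, 1, 0 and 0 cells (edgeR adjusted p = 0.416).

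Within the alpha chain, TRAV11 with TRAJ18, the invariant iNKT rearrangement, was the most frequent pair, with 15 and 14 clones in NonTg and 27 and 54 in 5xFADTg. This was 2.56% and 3.20% against 4.22% and 7.09% of clones with an alpha chain (log2 fold change 0.99, SE 0.44, edgeR adjusted p = 0.401). Joining of these segments exceeded the product of their shares by 24.4, 21.5, 20.6 and 10.6 times. All of these clones had the 15-residue alpha CDR3, and the largest of them had 1 cell in both NonTg libraries, 32 cells in 5xFADTg 1 (TRBV13-3 with TRBJ1-1) and 2 in 5xFADTg 2. By cell the shares were 1.51%, 1.83%, 4.64% and 3.85%. TRAV1 with TRAJ33, the invariant pair of MAIT cells, had 6, 4, 4 and 7 clones and TRAV3-3 with TRAJ22 had 1, 5, 6 and 8. TRAV12-2 with TRAJ34 had 1, 1, 4 and 5 clones (log2 fold change 1.62, edgeR unadjusted p = 0.0892, edgeR adjusted p = 0.401). Its SE of 0.37 is smaller than that p implies and does not measure its precision. Of 996 TRAV-TRAJ pairs seen, 9 entered the fit by clone, and of 1005 by cell 80 did. edgeR called 0 of each (0%), with 0 and 1 under 0.05 before adjustment, and DESeq2 called 0 with 0 and 0. Groups did not overlap for 33.3% of pairs by clone and 27.5% by cell. By cell the smallest p was that of TRAV8-2 with TRAJ40, with 0, 95, 1 and 0 cells, of which 94 were the largest clone of NonTg 2. TRAV14-3 with TRAJ22 had 4, 6, 0 and 0 cells, TRAV8-2 with TRAJ43 had 9, 1, 0 and 0, TRAV9-4 with TRAJ21 had 0, 0, 11 and 4, TRAV13-1 with TRAJ31 had 0, 0, 10 and 4 and TRAV19 with TRAJ57 had 0, 0, 16 and 1. All 6 had an edgeR adjusted p of 0.526.

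D and C gene use followed the J cluster. Every called C gene was TRBC1 with a TRBJ1 segment (2035 cells) and TRBC2 with a TRBJ2 segment (3509 cells), and 23 cells had no C call. TRBC1 therefore repeated the pattern of TRBJ1, with a difference of -0.960 points by clone and 12.4 points by cell (exact permutation p = 1 and 0.33, n = 2 each). The deposited files name a D gene for few chains, 29, 12, 45 and 173 cells or 2.26%, 1.31%, 3.14% and 8.96% of the libraries. In 5xFADTg 2, 107 of the 173 were the 107-cell TRBV12-1 with TRBJ1-1 clone, all of whose cells carried a TRBD1 call, and without it the share there was 3.62%. In 5xFADTg 1, 28 of the 45 calls came from 1 clone, and without it the share was 1.21%. The share without a D call by cell was 98.2% ± 0.674 in NonTg and 94.0% ± 4.12 in 5xFADTg (SD, n = 2 each, difference -4.26 points, exact permutation p = 0.33), -1.77 points without the 3 largest clones, -1.6 with only cells that have an alpha chain, -1.35 without 5xFADTg 2 and -7.18 without 5xFADTg 1. By clone it was 97.2% and 98.0% against 97.7% and 97.1%.

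TRBD2 was never named with a TRBJ1 segment (0 of 137 cells with a D call there, of which 107 were 1 clone). With TRBJ2 segments TRBD1 was named in 73 cells, of which 28 were 1 clone, and TRBD2 in 49. By clone, TRBJ1 segments had 4, 3, 6 and 9 TRBD1 calls in NonTg 1, NonTg 2, 5xFADTg 1 and 5xFADTg 2, and 0 TRBD2 calls. TRBJ2 segments had 5, 5, 6 and 10 TRBD1 calls by clone and 11, 3, 6 and 9 TRBD2 calls. TRBD1 made up 45.0% and 72.7% of D calls by clone in NonTg and 66.7% and 67.9% in 5xFADTg, and 55.2% and 75.0% against 86.7% and 84.4% by cell (difference 20.4 points, exact permutation p = 0.33, n = 2 each). The difference by cell was 2.18 points with only cells that have an alpha chain (exact permutation p = 1, n = 2 each), 7.79 with overlap without the 3 largest clones and 10.5 without NonTg 1. Calls went with long stretches: the longest run shared with a germline D segment had a median of 12 bases in the 77 clones with a call and of 6 in the 2892 without. The germline D segments are as follows.
TRBD1: gggacagggggc
TRBD2: gggactgggggggc

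To describe D use in more clones, the middle bases were compared with both germline D segments, and a clone was assigned where it shared at least 5 bases with 1 of them and more than with the other. TRBD1 was then assigned in 34.3% and 38.7% of the assigned TRBJ2 clones in NonTg and 36.2% and 38.4% in 5xFADTg, with intervals that overlap (29.3 to 39.6%, 32.7 to 45.0%, 31.3 to 41.3% and 34.0 to 43.0%). In TRBJ1 clones TRBD2 was assigned in 6.98% of 630, where the order of the locus allows none. This shows the error of the match in 1 direction, TRBD1 taken for TRBD2. TRBJ1 clones cannot show the opposite error, TRBD2 taken for TRBD1, which also bears on the TRBJ2 shares. The TRBD1 run of the 107-cell clone was 11 bases long, that of the TRBV17 with TRBJ1-1 clone 7 bases.

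Counted by clone, the beta CDR3 values of the genotypes overlapped. Its length had a median of 14 residues in all 4 libraries, lay between 8 and 19 over all of them, and had means of 14.1, 13.9, 13.9 and 14.1 in NonTg 1, NonTg 2, 5xFADTg 1 and 5xFADTg 2. The middle bases, those not matched to germline V or J, numbered 10.3 and 9.81 per clone in NonTg and 9.93 and 10.2 in 5xFADTg. The net charge of the loop, which is the CDR3 without its first and last 3 residues and with lysine and arginine as 1 and aspartate and glutamate as -1, was -0.776, -0.774, -0.716 and -0.783. Its mean Kyte-Doolittle hydropathy, which is higher for more hydrophobic residues, was -1.24, -1.32, -1.27 and -1.28. Libraries overlapped in all 8 composition measures by clone (0% without overlap), with an adjusted exact permutation p of 1 in each (n = 2 each).

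By cell the groups did not overlap in any of the 8 measures (100%), although these are not independent: TRBJ1 and TRBC1 are the same split, and all 8 weight the same large clones. Length was 14.07 and 14.14 residues in NonTg and 14.06 and 13.87 in 5xFADTg (difference -0.139), so NonTg 1 and 5xFADTg 1 were nearly equal. Charge was -0.831 and -0.890 in NonTg and -0.559 and -0.733 in 5xFADTg (difference 0.214). Hydropathy was -1.16 and -1.16 against -1.24 and -1.23 (difference -0.0731), and the middle bases numbered 10.2 and 9.73 against 10.4 and 10.7 (difference 0.585). Each had an exact permutation p of 0.33 and an adjusted p of 0.33 (n = 2 each), the smallest possible. Without the 3 largest clones of each library the differences were -0.0200 residues, 0.119, -0.0558 and 0.311, all in the same direction, and those of length, hydropathy and middle bases then overlapped between groups. Single libraries moved some of them: length differed by -0.235 without 5xFADTg 1 and -0.0441 without 5xFADTg 2, charge by 0.127 without 5xFADTg 1, and middle bases by 0.352 without NonTg 2. With only cells that have an alpha chain hydropathy differed by -0.125, and over the 4 middle residues charge differed by 0.0663, with overlap, and hydropathy by -0.219.

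**Figure D5:**
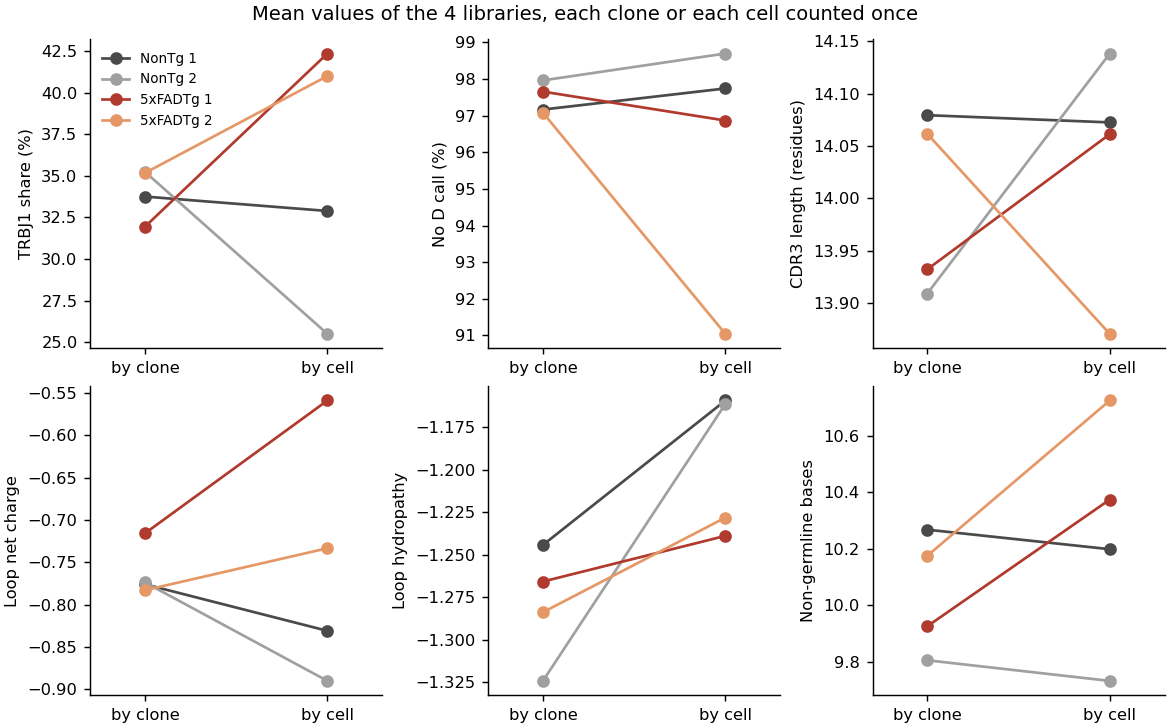
Composition values (y axes, in the units named) of the 4 parenchyma libraries, counted by clone and by cell (x axis), with a line for each library. By cell both 5xFADTg libraries lie above both NonTg libraries in TRBJ1 share, charge and middle bases and below them in the share without a D call, length and hydropathy, while by clone the libraries mix.

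CDR3s of 12 residues made up 8.51%, 13.5%, 9.78% and 11.8% of clones, but 21.3% of the cells of 5xFADTg 2, where the clones of 115, 71 and 51 cells have that length. CDR3s of 15 residues made up 38.9% of the cells of NonTg 2, whose 3 largest clones all have 15 residues, against 23.4% of its clones. CDR3s of 13 residues made up 22.9% of the cells of 5xFADTg 1, which holds the 86-cell TRBV17 clone, against 18.5% of its clones.

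Loop residues were compared 1 by 1 over all loops. By clone edgeR called 0 of 19 residues tested (0%), with 1 under 0.05 before adjustment and the same numbers by DESeq2, and 42.1% did not overlap between groups. Histidine had the smallest p, with 22 and 21 residues in NonTg and 50 and 50 in 5xFADTg, or 0.439% against 0.735% of loop residues (log2 fold change 0.74, SE 0.30, edgeR adjusted p = 0.327). By class, basic residues made up 6.92% and 7.41% in NonTg and 7.79% and 7.51% in 5xFADTg, and hydrophobic residues 16.0% and 15.2% against 16.1% and 16.0%. Both classes had an exact permutation p of 0.33 and an adjusted p of 0.778 (n = 2 each). Acidic, aromatic and polar residues, glycine and proline overlapped.

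By cell edgeR again called 0 of 19 residues (0%), with 2 under 0.05 before adjustment, and 47.4% did not overlap. DESeq2 called 1, tyrosine, with 4 under 0.05. Tyrosine made up 4.68% of loop residues in NonTg and 2.8% in 5xFADTg (log2 fold change -0.74, SE 0.14, edgeR adjusted p = 0.135, DESeq2 adjusted p = 0.0370). By clone its share was 3.33% in both (log2 fold change -0.03, SE 0.12), and without the 3 largest clones the log2 fold change by cell was -0.29. Histidine by cell had 26 and 24 residues in NonTg and 98 and 76 in 5xFADTg (1.23, SE 0.41, edgeR adjusted p = 0.361). Arginine was 5.13% against 6.82% and threonine 8.25% against 10.5% (edgeR adjusted p = 0.361 for both). Alanine was 7.81% against 6.42% and serine 15.9% against 14.6% (edgeR adjusted p = 0.370 for both). By class, basic residues were 5.84% and 5.98% of loop residues in NonTg and 8.97% and 6.82% in 5xFADTg, and aromatic residues 7.37% and 7.72% against 4.99% and 6.15% (exact permutation p = 0.33, adjusted p = 0.467, n = 2 each). Groups did not overlap for 5 of the 7 classes by cell (71.4%). The other 3 were acidic residues (15.9% and 16.6% against 15.1% and 15.6%), glycine (17.3% and 17.6% against 18.2% and 19.5%) and polar residues (36.0% and 34.1% against 36.4% and 36.6%), with the same p and adjusted p.

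By nucleotides, the 2 NonTg libraries shared 0 and the 2 5xFADTg libraries shared 0, while the 4 pairs of libraries of different genotype shared 5 in all, at most 3 per pair (NonTg 2 with 5xFADTg 2, 0.557% and 0.313% of their clones). All 5 are shown because they are the whole overlap.
TRBV3 with TRBJ2-2: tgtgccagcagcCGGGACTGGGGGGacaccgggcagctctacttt
TRBV3 with TRBJ1-3: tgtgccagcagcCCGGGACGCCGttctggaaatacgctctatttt
TRBV5 with TRBJ2-5: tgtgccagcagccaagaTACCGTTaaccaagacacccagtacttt
TRBV12-2+TRBV13-2 with TRBJ2-3: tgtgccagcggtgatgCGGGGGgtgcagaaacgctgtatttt
TRBV20 with TRBJ2-4: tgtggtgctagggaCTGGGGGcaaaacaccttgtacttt

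The first had 1 cell in NonTg 2 and 17 in 5xFADTg 2, the second 1 and 5 in the same libraries, and the other 3 had 1 cell in each of 2 libraries. The fourth carries the joint V label in NonTg 1 and the label TRBV13-2 in 5xFADTg 2. In none was the alpha chain the same in both libraries, although the first had TRAV13-1 and the third TRAV7-4 in both. Between 1 and 3 cell barcodes were shared by each pair of libraries. Translated to amino acids, each pair of libraries shared 5 to 11 beta CDR3s, 6 within NonTg, 6 within 5xFADTg and 28 over the 4 pairs between genotypes, or 0.632 to 1.57% of a library's sequences. The 33 amino acid sequences found in 2 or more libraries had a median of 9 middle bases, against 10 for the rest.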

How the data were processed

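Counts of reads and UMIs per assembled receptor contig were deposited by the authors, with V, D, J and C calls and CDR3 sequences, per the file headers. Cell Ranger 6.0 and mm10 are named in the submitters' processing notes, with no further settings given in the sources used here. Only productive contigs were used. Cells with 2 or more productive TRB (390 of 6161) or none (204) were left out; 22 contigs called Multi were not used.

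Members, lists and tests were chosen with earlier results of these data known. Size and composition values were compared over libraries with the two-sided exact permutation test. Segments, pairs and loop residues with at least 10 counts in all were fitted with edgeR 4.0.16 (quasi-likelihood, library totals as size, Benjamini-Hochberg threshold 0.05), and DESeq2 1.42.0 was an alternative. The SE of a log2 fold change is its absolute value divided by the square root of edgeR's F statistic. It was not estimated separately and can be smaller than the p-value implies. The edgeR script was tested on simulated counts, except for TRBV-TRAV and TRAV-TRAJ pairs by clone, which held too few features of high count. The simulated counts did not copy the jumps that single large clones give by cell. They therefore do not show the power or error of the fits by cell. Alternatives changed the clone definition, required TRA or 2 TRB UMIs, left out each library in turn, used TMM factors, no filter, other labels or the replicate number as block. Features named were those past the threshold, among the 3 smallest p each way in a fit by clone or cell or the most used. J segments were named singly or covered by a range, and all D and C genes were named. Germline sequences and positions are from GENCODE M21, and chains labelled TRBV10 were matched to germline TRBV4, with which most of them open.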

Additional observations from a re-analysis of the deposited data

Results flagged for a closer look

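In 5 of the 8 composition measures the value by cell differed from the value by clone in opposite directions in the genotypes, in both libraries of each. This difference was not tested, and the measures overlap in what they count. For the TRBJ1 share, by cell minus by clone was -0.867 and -9.76 points in NonTg 1 and NonTg 2 and 10.4 and 5.84 points in 5xFADTg 1 and 5xFADTg 2. For the TRBC1 share of called C genes it was -0.878, -9.68, 10.4 and 5.70 points. For the share without a D call it was 0.577 and 0.734 points in NonTg and -0.789 and -6.04 points in 5xFADTg. The net charge of the loop moved by -0.0550, -0.116, 0.157 and 0.0496, and the middle bases of the CDR3 by -0.0693, -0.0732, 0.449 and 0.551.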

How the results depend on the processing

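With 2 libraries per genotype no exact permutation p could go below 0.33, whatever the depth. Differences by cell kept their direction in 67 of 67 alternative values but not their size, those by clone in 59 of 77 and those of clone size in 53 of 58. The replicate number as block gave 8, 8 and 5 of these values. They equal the main difference by construction, so they could not turn. With only cells that have TRA the differences by clone were 1.10 points for TRBJ1, 1.08 for TRBC1, -0.00300 residues for length and -0.000590 for hydropathy, all of opposite sign to those reported. With all cells counted the number of clones turned too (240.5), but depth was then not equal. NonTg 1, NonTg 2, 5xFADTg 1 and 5xFADTg 2 held 705, 539, 767 and 958 clones in 1283, 918, 1435 and 1931 cells. The sign also turned for hydropathy by clone over the 4 middle residues (-0.0360) and for the probability that 2 cells share a clone without the 3 largest clones (0.190). It turned for middle bases by clone without TRBV10 (-0.0528) and for clones without a D assignment by the own match (0.0402). The cause was not tested. With a library left out, equal depth was set by the smallest library kept. Leaving out a library leaves its genotype with 1, so these values have no permutation test. They ran from -0.298 to 4.22 for cells in clones of 10 or more, -0.845 to 0.494 for the probability, -1.41 to 6.16 for the 10 largest clones, and, by clone, -2.56 to 0.673 for TRBJ1, -2.66 to 0.741 for TRBC1, -5.47 to 22.3 for TRBD1, -0.594 to 0.202 for no D call, -0.0825 to 0.0878 for length, -0.00811 to 0.0590 for charge, -0.0305 to 0.0493 for hydropathy and -0.218 to 0.245 for middle bases. By cell they ran from 8.80 to 16.2 points for TRBJ1, 8.63 to 16.1 for TRBC1, 10.5 to 30.4 for TRBD1, -7.18 to -1.35 for no D call, -0.235 to -0.0441 for length, 0.127 to 0.302 for charge, -0.0785 to -0.0678 for hydropathy and 0.352 to 0.818 for middle bases. Log2 fold changes by clone that turned were those of TRBV20 (-0.978 to 0.0172), TRAV3-3 with TRAJ22 (-0.19 to 2.42) and aspartate (-0.18 to 0.00064).

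Calls appeared by cell in 6 alternative fits. Segments gave 1 with TMM factors (TRBJ1-1), 2 with DESeq2 (TRBJ1-1, TRBV1) and 1 without 5xFADTg 1 (TRBV30). Residues gave 1 with DESeq2 (tyrosine), TRBV-TRBJ pairs 1 without 5xFADTg 1 (TRBV30 with TRBJ2-4) and TRAV-TRAJ pairs 1 without NonTg 1 (TRAV8-2 with TRAJ40). The other 119 alternative fits gave 0. With the replicate number as a block, edgeR gave 0 calls in each of 10 fits (smallest edgeR adjusted p = 0.0556, residues by cell). The permutation of library values within this block had a smallest possible p of 0.5. The block cannot change a difference of group means, so the TRBJ1 difference by cell stayed at 12.5 points. Same-numbered libraries deviated together with r = 0.301 over 33 segments and 0.0202 over 121 TRBV-TRBJ pairs by clone, and the labels do not say that the numbers pair them. Clone definitions do not bear on values by cell.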

Other observations

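Cells with 2 or more productive beta chains entered no comparison, and some held the chain of a clone of 10 or more cells. This was so for 44 of 97 such cells in NonTg 1, 11 of 52 in NonTg 2, 22 of 114 in 5xFADTg 1 and 35 of 127 in 5xFADTg 2. Of the cells that entered, 399 of 1283, 264 of 918, 470 of 1435 and 707 of 1931 in the same libraries were in such clones. The share in left-out cells was thus higher in NonTg 1 and lower in NonTg 2, 5xFADTg 1 and 5xFADTg 2, which was not tested. The sequence of the 107-cell TRBV12-1 with TRBJ1-1 clone was also found in 5 left-out cells of 5xFADTg 2. It was found in 1 cell of the 5xFADTg meninges too, which had no alpha chain.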
